A study of Rattus norvegicus with 60 samples.

Results

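Elastic fibre, proteoglycan and matrix cross-linking genes were followed in the kidney of Dahl salt-sensitive rats with and without NADPH oxidase 4. The set held 37 gene names, chosen by name and not by a measured value. Of these, 36 were found among the 32545 genes of the deposited count table, on 38 gene rows. Ogn and Aspn had 2 rows each, the name Hspg2 was not found, and Mfap4 had no count in any library. After a filter on low counts, 35 rows were tested in outer medulla, 34 in cortex and 36 over both tissues together.

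The samples came from a NOX4 knockout line derived from the Dahl salt-sensitive rat (NOX4) and from the wild-type parent (SS). Salt feeding with 4.0% NaCl lasted 21 days (HS21) or 7 days (HS7), and control animals (LS) did not receive it; outer medulla and cortex were taken from both strains. The 60 libraries of poly(A) RNA from snap-frozen tissue fall into 12 groups with 5 in each. The labels do not say how the NOX4 line was made, nor whether the replicates are separate animals, so p-values measure the spread between these libraries.

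Elastic fibres have a core of elastin laid on a scaffold of fibrillin microfibrils, to which fibulins, emilins and latent TGF-beta binding proteins attach. Small leucine-rich proteoglycans coat collagen fibrils and set their spacing, and lysyl oxidases join collagen and elastin chains by covalent bonds. In kidney, interstitial fibroblasts, pericytes and vascular smooth muscle make most of these proteins, and their build-up is a mark of fibrosis in the salt-fed Dahl rat.

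Library totals ran from 11.5 to 29.6 M counts. The targeted gene, Nox4, averaged 73.7 to 75.1 CPM (counts scaled to a common library size) in the NOX4 cortex groups and 357 to 482 CPM in the SS cortex groups; in outer medulla the strains overlapped, at 1.64 to 13.6 CPM over the NOX4 libraries and 5.42 to 100.6 CPM over the SS ones. The labels do not give the deleted part of the gene. Umod of the thick ascending limb averaged 6285 to 10340 CPM in outer medulla and 2128 to 3384 CPM in cortex, whereas Slc34a1 of the early proximal tubule averaged 123 to 954 CPM in outer medulla and 4680 to 6756 CPM in cortex. In 11 libraries, all SS at LS or HS7, 10 or more of the genes whose median in the tissue lay between 2 and 5 CPM were without a read; these are called low-complexity libraries. One of them, replicate 3 of SS outer medulla at HS7, also held the most Slc34a1 of any outer medulla library, 3179 CPM, so results at HS7 are given with and without it. RNA from whole tissue pieces was measured, in which fewer cells of a type and less RNA per cell cannot be told apart.

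Levels of the genes covered more than 3 orders of magnitude. Per kilobase of gene length, Sparc, which encodes a collagen-binding matricellular protein, was the most abundant, at 396 CPM per kilobase averaged over the outer medulla groups and 309.6 over the cortex groups. The proteoglycan genes Bgn and Dcn followed, with 306 and 134 CPM per kilobase in outer medulla and 102 and 94.6 in cortex. Fn1, for fibronectin, had 94.5 CPM per kilobase in outer medulla, rank 5, and 18.9 in cortex, rank 11. At the low end, Postn, Fmod, Lum, Fbln2, Mfap5 and both Aspn rows each averaged below 1 CPM per kilobase over the outer medulla groups, so few reads stand behind their values.

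**Figure D1:**
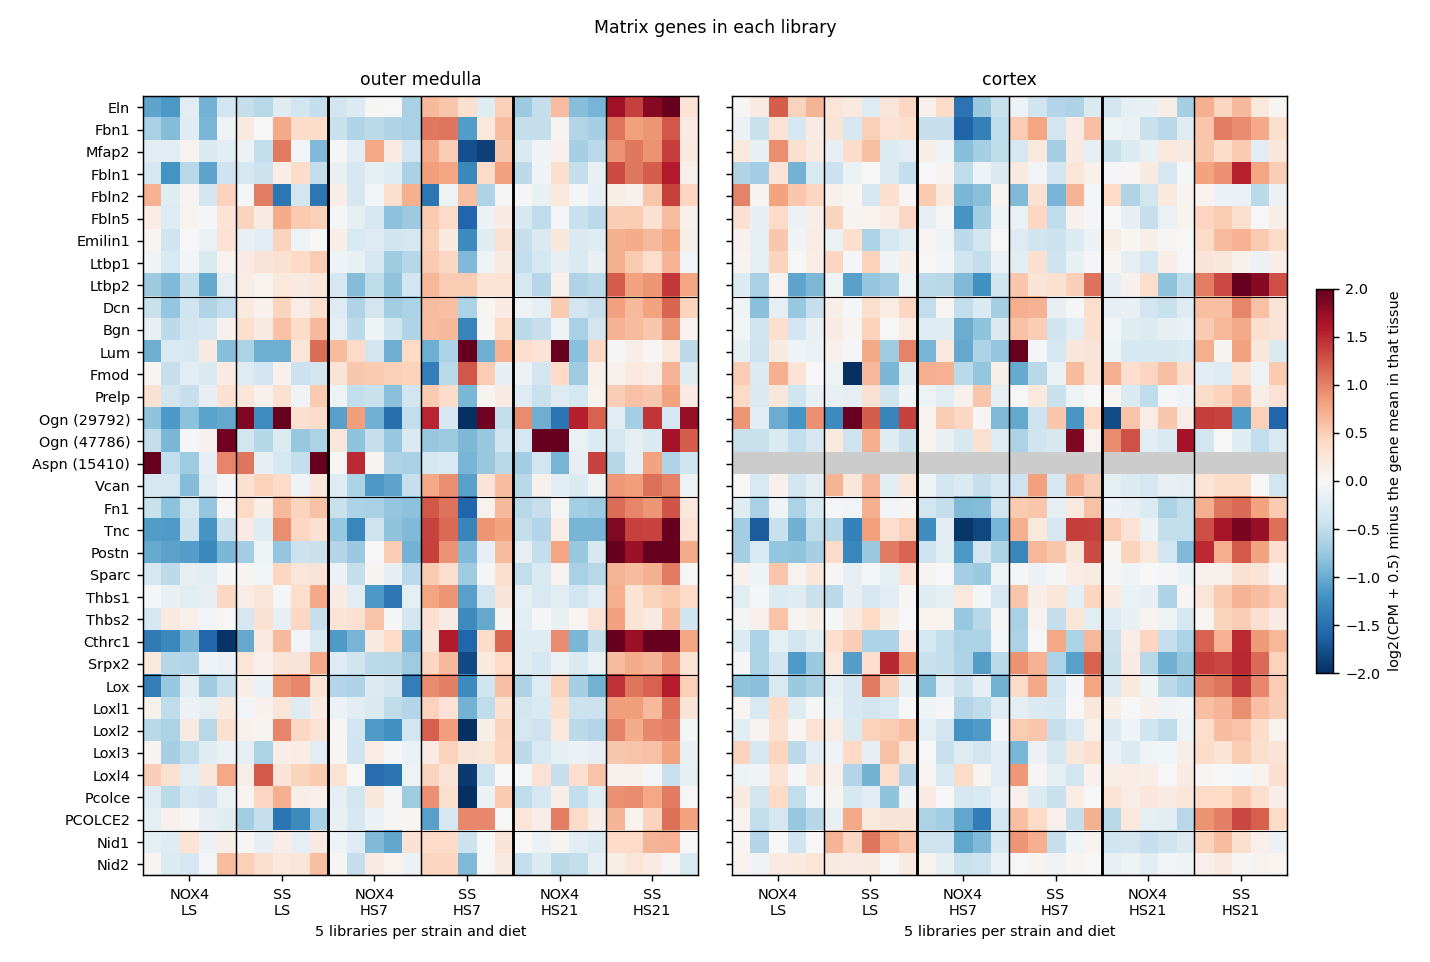
Colour gives log2(CPM + 0.5) of each gene in each library minus the mean of that gene over the 30 libraries of the tissue, with outer medulla on the left and cortex on the right. Rows run by role (elastic fibre, proteoglycans, matricellular proteins with fibronectin, cross-linking and processing, nidogens). Columns run by diet and, within a diet, NOX4 then SS. Aspn was not tested in cortex and is grey there. The SS libraries at HS21 are red for most genes in both tissues, and in outer medulla replicate 5 of that group is paler than the other 4.

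Promoter sequence was available for 24 of the 37 names in the RefSeq table of the GRCr8 assembly, whose coordinates are not those of the count table. Windows of 250 bases are printed for 4 genes on which the comparisons below turn and whose window lies wholly outside the annotated gene: Loxl1 (chr8:67612225-67612474, minus strand), the paralogs Pcolce (chr12:24720722-24720971, plus strand) and PCOLCE2 (chr8:105072836-105073085, plus strand), whose strain effects differed between the tissues in opposite directions, and Sparc (chr10:40038817-40039066, minus strand). Each is written 5′ to 3′ along the gene, and capitals mark matches on either strand to CAGAC (a SMAD element), GGGCGG (a GC box) or GGAATG (a TEAD element).
Loxl1: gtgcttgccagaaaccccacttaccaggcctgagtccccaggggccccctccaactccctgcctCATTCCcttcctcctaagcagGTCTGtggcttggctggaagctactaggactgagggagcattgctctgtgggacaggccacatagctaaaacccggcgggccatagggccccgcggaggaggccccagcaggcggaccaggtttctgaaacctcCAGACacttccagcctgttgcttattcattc
Pcolce: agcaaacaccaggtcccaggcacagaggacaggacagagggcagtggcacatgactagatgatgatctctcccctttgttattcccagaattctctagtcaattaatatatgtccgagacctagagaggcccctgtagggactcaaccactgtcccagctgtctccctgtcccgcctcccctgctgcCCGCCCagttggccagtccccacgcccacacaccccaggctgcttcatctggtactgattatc
PCOLCE2: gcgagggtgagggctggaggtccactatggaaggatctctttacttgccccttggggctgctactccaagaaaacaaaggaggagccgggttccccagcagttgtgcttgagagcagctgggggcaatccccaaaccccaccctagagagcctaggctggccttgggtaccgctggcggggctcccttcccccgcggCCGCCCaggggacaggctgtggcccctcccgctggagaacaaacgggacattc
Sparc: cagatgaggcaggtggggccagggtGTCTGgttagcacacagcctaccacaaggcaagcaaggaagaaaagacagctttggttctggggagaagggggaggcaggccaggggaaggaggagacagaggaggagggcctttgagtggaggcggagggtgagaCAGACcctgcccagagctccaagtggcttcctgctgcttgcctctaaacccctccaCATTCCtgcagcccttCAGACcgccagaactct
Loxl1 held 2 matches to CAGAC and 1 to GGAATG, and Sparc held 3 and 1, whereas Pcolce and PCOLCE2 each held 1 GC box and neither of the other motifs. The counts over the 24 windows and over all genes took windows whether or not they lay wholly outside the annotated gene. Those of Ltbp1, Ltbp2, Nid1, Ogn, Postn, Srpx2 and Tnc did not, and they are counted but not printed. Over the 24 windows, CAGAC was found in 14 (58.3%, against 42.8% of 27456 windows of all genes), GGAATG in 7 (29.2%, against 11.8%) and GGGCGG in 13 (54.2%, against 32.4%). TATAAA was found in 3 (12.5%, against 13.1%), and TGANTCA, the AP-1 element, in none of the 24, against 6.36% of all. Median GC content was 61.0% in the 24 windows and 52.0% in all. No base in the printed windows belongs to more than 1 match, and a match describes the sequence only.

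Most of the matrix genes were lower in NOX4 than in SS kidney in both tissues when the 3 diets were averaged. In outer medulla, 26 of 35 were lower and 1 was higher at an adjusted p under 0.05 (edgeR quasi-likelihood test, Benjamini-Hochberg adjustment over all 15799 genes), while 15.1% of all genes were called lower and 15.4% higher. Their median log2 fold change was -0.62, against -0.02 over all genes tested. In cortex, 20 of 34 were lower and none higher, while 15.0% of all genes were called lower, and the median was -0.34, against 0.00 over all genes. The 18 genes lower in both tissues made up 69.2% of the outer medulla list and 90% of the cortex list. Calls in either direction numbered 26 to 28 in outer medulla and 20 to 21 in cortex when any 1 library was left out.

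**Figure D2:**
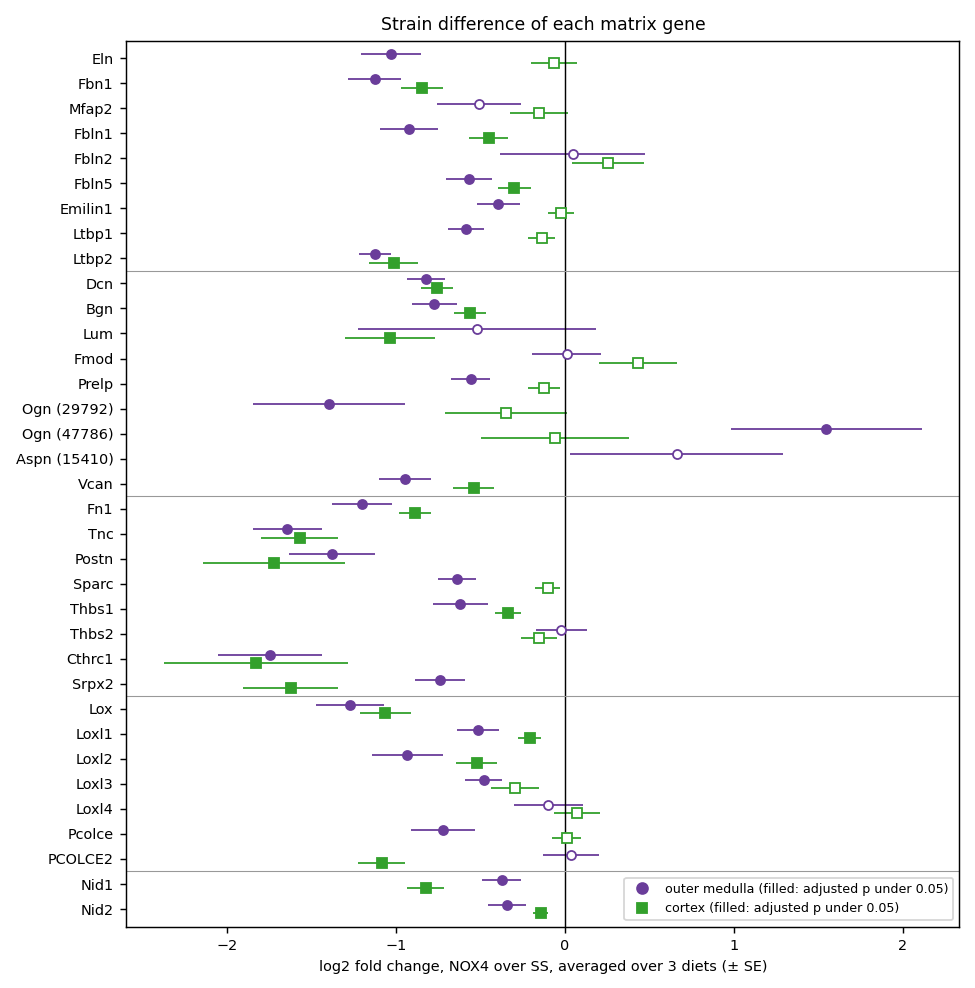
Log2 fold change of NOX4 over SS, averaged over the 3 diets, on the x axis, with each gene on a line of its own; circles are outer medulla, squares cortex, bars 1 standard error from the edgeR fit, and filled symbols passed an adjusted p of 0.05. Most filled symbols lie left of 0, Tnc at -1.64 and -1.57 among them, while Eln, Pcolce and Sparc are filled in outer medulla alone and PCOLCE2 in cortex alone.

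Markers of other cells moved with the strain. Of 11 fibroblast markers tested, 8 were lower in NOX4 outer medulla, Pdgfra (-0.91 ± 0.13, SE) and Col3a1 (-1.06 ± 0.17) among them, and 5 were lower and 1 higher in NOX4 cortex. The fibroblast list includes fibrillar collagen genes, Col3a1 among them, which are themselves matrix genes. Their summed level was 947 to 2045 CPM over the NOX4 outer medulla libraries and 745 to 4505 CPM over the SS ones, and 346 to 1157 CPM over the NOX4 cortex libraries and 639 to 1441 CPM over the SS ones. Of 10 smooth muscle and pericyte markers, 6 were lower in NOX4 outer medulla and 2 in NOX4 cortex. All 8 podocyte markers were higher in NOX4 cortex, and 3 were lower in NOX4 outer medulla. Of 9 endothelium markers, 4 were higher in NOX4 cortex and 1 in NOX4 outer medulla. Of 8 markers of proximal tubule segments 1 and 2, 6 were higher in NOX4 cortex and 2 in NOX4 outer medulla. Of 7 tubular injury markers, 5 were lower in NOX4 outer medulla (median log2 fold change -0.79) and 6 in NOX4 cortex (-0.99), and of 7 markers of collecting duct principal cells none was called in outer medulla and 6 were higher in NOX4 cortex (0.53). At HS21 the fibroblast sum was 972 to 2045 CPM in NOX4 outer medulla, against 1951 to 4505 CPM in SS, and 707 to 791 CPM in NOX4 cortex, against 1027 to 1441 CPM in SS. Every fibroblast and smooth muscle marker that was found, 11 of 12 for fibroblasts and all 10 for smooth muscle, reached 1 CPM in some library, and the part of any of these cells in the matrix results was not tested.

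Proximal tubule segment 3 lies at the border of cortex and outer medulla. Of its 11 markers, 8 were higher and 1 lower in NOX4 outer medulla over the diets, and 5 were lower in NOX4 cortex. The mean log2 CPM of those markers that averaged 1 CPM or more in the tissue, scaled within that tissue, was used as a score. At HS21 this score was 5.38 to 6.32 in NOX4 outer medulla, against 3.84 to 5.84 in SS, and 4.34 to 5.13 in NOX4 cortex, against 4.84 to 5.92 in SS. With this score as a covariate, the averaged strain difference was called for 10 genes in outer medulla and for 8 in cortex, every one of them lower in NOX4. The 6 called in both tissues under that model were Dcn, Fbn1, Fn1, Lox, Ltbp2 and Tnc. For Ltbp2 the log2 fold change was -1.10 in outer medulla and -1.32 in cortex with the covariate, against -1.12 ± 0.10 and -1.01 ± 0.14 without it. The values whose call was lost moved by unequal amounts. In outer medulla those of Emilin1 and Nid2 were -0.05 and -0.03 with the covariate, against -0.39 ± 0.13 and -0.34 ± 0.11 without it. In cortex those of Cthrc1 and Fbln1 were -2.54 and -0.54, against -1.83 ± 0.55 and -0.45 ± 0.12.

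Among the elastic fibre genes, Ltbp2, whose protein binds fibrillin microfibrils, was lower in NOX4 in both tissues. At HS21 it had 19.6, 16.8, 27.1, 16.5 and 17.2 CPM in the 5 NOX4 outer medulla libraries, against 59.0, 44.4, 47.0, 68.4 and 43.7 CPM in SS. The groups did not overlap (log2 fold change -1.45 ± 0.17, adjusted p = 2.95e-05). In cortex at HS21 it had 15.0, 18.0, 21.8, 9.52 and 11.7 CPM in NOX4, against 34.9, 43.2, 72.3, 60.9 and 42.0 CPM in SS, again with no overlap (log2 fold change -1.74 ± 0.25, adjusted p = 0.000500).

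Eln, the gene for elastin itself, differed between the strains in outer medulla. At HS21 the NOX4 libraries had 27.7, 33.1, 70.7, 25.2 and 23.8 CPM and the SS libraries 148, 119.7, 165, 292 and 55.5 CPM. NOX4 replicate 3 was the highest of its group and lay above SS replicate 5, the lowest of the SS group; the other libraries were apart (log2 fold change -2.12 ± 0.32, adjusted p = 0.00233). At LS the values were 21.8, 20.6, 39.9, 23.8 and 35.1 CPM in NOX4 outer medulla and 33.1, 31.1, 39.1, 35.3 and 32.9 CPM in SS, which overlapped. In cortex, Eln averaged over diets was 34.0 ± 15.5 CPM in NOX4 and 35.1 ± 10.1 CPM in SS (SD, n = 15 each), and its difference of -0.06 ± 0.14 was not called. The average covers means that differed in direction by diet. They were 48.3 CPM in NOX4 cortex against 36.8 CPM in SS at LS, 26.2 against 24.7 CPM at HS7, and 27.7 against 43.8 CPM at HS21. Eln was not called in cortex at any single diet.

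The fibrillin gene Fbn1 averaged 105 ± 20.4 CPM in NOX4 outer medulla and 226 ± 77.4 CPM in SS (SD, n = 15 each; log2 fold change -1.12 ± 0.16, adjusted p = 1.70e-05), and 45.6 ± 13.6 against 80.9 ± 21.3 CPM in cortex (log2 fold change -0.84 ± 0.12, adjusted p = 9.81e-06). Fbln1 and Fbln5, for fibulins of elastic fibres, were lower in NOX4 outer medulla (-0.92 ± 0.17 and -0.57 ± 0.14) and in NOX4 cortex (-0.45 ± 0.12 and -0.30 ± 0.10). Emilin1, found between elastin and microfibrils, and Ltbp1, which holds latent TGF-beta in the matrix, were lower in NOX4 outer medulla (-0.39 ± 0.13 and -0.59 ± 0.11) and not called in cortex (-0.02 ± 0.08 and -0.14 ± 0.08). Mfap2 and Fbln2 were not called in either tissue. Mfap5 passed the filter only with both tissues together.

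At HS21, Emilin1 had 91.0, 103, 146, 103 and 106 CPM in NOX4 outer medulla, against 207, 211, 197, 218 and 136 CPM in SS. Only NOX4 replicate 3 and SS replicate 5 overlapped. Ltbp1 had 58.9, 65.6, 74.1, 67.5 and 75.2 CPM in NOX4 outer medulla at HS21 and 136, 120.1, 106, 134 and 80.2 CPM in SS. The lowest SS library, replicate 5, still lay above the highest NOX4 library.

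Of the proteoglycan genes, Dcn and Bgn, for the collagen-coating proteins decorin and biglycan, were lower in NOX4 outer medulla (log2 fold change -0.82 ± 0.11, adjusted p = 1.51e-05 for Dcn; log2 fold change -0.77 ± 0.13, adjusted p = 0.000148 for Bgn) and in NOX4 cortex (-0.76 ± 0.09 and -0.56 ± 0.10, adjusted p = 2.10e-06 and 6.44e-05). Dcn averaged 182 ± 48.0 CPM in NOX4 outer medulla and 318 ± 90.0 CPM in SS (SD, n = 15 each). Vcan, for the large aggregating proteoglycan versican, was also lower in both tissues (-0.95 ± 0.15 in outer medulla, -0.54 ± 0.12 in cortex). Prelp, whose product ties basement membrane to collagen, was called in outer medulla (-0.56 ± 0.12) and not in cortex (-0.12 ± 0.09). Lum, for lumican, was called in cortex (log2 fold change -1.03 ± 0.27, adjusted p = 0.00388), at 1.52 ± 0.486 CPM in NOX4 and 3.14 ± 2.69 CPM in SS. Fmod, for fibromodulin, was not called in either.

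The 2 Ogn rows, both on chromosome 17 with lengths of 2650 and 897 bases, went in opposite directions in outer medulla; how reads were shared between rows of 1 name is not given in the sources used here, so both are uncertain. The row ENSRNOG00000029792 was lower in NOX4 (log2 fold change -1.39 ± 0.45, adjusted p = 0.0200) and ENSRNOG00000047786 was higher (log2 fold change 1.55 ± 0.56, adjusted p = 0.0370). The higher row rested on few libraries: at HS21 it had 0.326, 11.1, 7.17, 0.459 and 0.372 CPM in NOX4, against 0.329, 0.428, 0.367, 2.84 and 1.94 CPM in SS. Replicates 2 and 3 of NOX4 stood above all others. Its call held in 18 of 30 fits with 1 library left out (adjusted p up to 0.115). The lower row at LS had 3.95, 3.02, 3.91, 3.21 and 3.36 CPM in NOX4 outer medulla and 28.1, 2.76, 73.4, 9.26 and 9.62 CPM in SS, where replicates 1 and 3 were far above the rest. Its averaged call was lost without SS LS outer medulla replicate 3 (log2 fold change -1.06, adjusted p = 0.0585). Summed over both rows, the levels at HS21 were 9.50 to 23.0 CPM in NOX4 outer medulla and 4.83 to 27.6 CPM in SS. Aspn was tested on 1 row in outer medulla and was not called.

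Matricellular genes, whose products bind cells and matrix and which are grouped here with the fibronectin gene Fn1, held several of the widest strain differences. Tnc, for tenascin-C of remodelling tissue, had 21.6, 19.8, 33.6, 15.6 and 15.5 CPM in NOX4 outer medulla at HS21, against 109, 78.6, 77.8, 121 and 36.9 CPM in SS. Every NOX4 library lay below the lowest SS library, which was replicate 5 (log2 fold change -2.01 ± 0.35, adjusted p = 0.00744). In cortex at HS21 it had 9.51, 8.14, 6.01, 4.56 and 4.54 CPM in NOX4 and 16.8, 21.7, 25.9, 23.2 and 14.6 CPM in SS, without overlap. Averaged over diets its log2 fold change was -1.64 ± 0.20 in outer medulla and -1.57 ± 0.23 in cortex (adjusted p = 4.90e-06 and 1.02e-05).

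Fn1 averaged 486 ± 100.2 CPM in NOX4 outer medulla and 1103 ± 395 CPM in SS (SD, n = 15 each; log2 fold change -1.20 ± 0.18, adjusted p = 3.05e-05), and 110.2 ± 18.9 and 207 ± 60.8 CPM in cortex (log2 fold change -0.89 ± 0.09, adjusted p = 2.66e-07). Postn, for periostin, had 1.82, 1.39, 4.12, 1.07 and 1.64 CPM in NOX4 outer medulla at HS21 and 10.8, 8.28, 11.1, 10.7 and 3.95 CPM in SS. NOX4 replicate 3 overlapped SS replicate 5 alone, and averaged over diets Postn had a log2 fold change of -1.38 ± 0.25 in outer medulla and -1.72 ± 0.42 in cortex, both called. Cthrc1, a collagen triple helix repeat protein of injured vessels, had 2.47, 2.49, 6.27, 1.38 and 2.05 CPM in NOX4 outer medulla at HS21, against 14.3, 11.1, 15.9, 18.3 and 5.58 CPM in SS. Its groups also overlapped only at NOX4 replicate 3 and SS replicate 5 (averaged log2 fold change -1.75 ± 0.31, adjusted p = 0.000185). In cortex Cthrc1 stayed at or below 1.67 CPM in every library, and its averaged difference of -1.83 ± 0.55 (adjusted p = 0.0110) rests on few reads.

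Srpx2, a sushi repeat protein that binds the urokinase receptor, had 1.22, 2.12, 1.09, 0.707 and 0.862 CPM in NOX4 cortex at HS21, against 5.60, 5.39, 6.11, 4.61 and 2.73 CPM in SS. In outer medulla it had 18.6, 17.5, 20.3, 18.1 and 20.1 CPM in NOX4 and 34.7, 37.5, 35.7, 42.5 and 26.8 CPM in SS. The groups did not overlap in either tissue, and at HS21 Srpx2 was called in cortex and not in outer medulla. Averaged over diets, its log2 fold change was -1.62 ± 0.28 in cortex (adjusted p = 7.50e-05) and -0.74 ± 0.15 in outer medulla (adjusted p = 0.000679). Sparc had 556, 630.3, 818, 498 and 531 CPM in NOX4 outer medulla at HS21 and 1251, 1212, 1275, 1596 and 778 CPM in SS, with NOX4 replicate 3 above SS replicate 5. It was called in outer medulla (log2 fold change -0.64 ± 0.11, adjusted p = 0.000185) and not in cortex (-0.10 ± 0.07). Thbs1, a thrombospondin that can activate latent TGF-beta, was lower in both tissues (-0.62 ± 0.16 in outer medulla, -0.34 ± 0.08 in cortex), and its relative Thbs2 was called in neither.

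Cross-linking enzymes followed the same order of strains for most members. Over the diets Lox, the founding lysyl oxidase, averaged 18.8 ± 6.52 CPM in NOX4 outer medulla and 45.7 ± 19.8 CPM in SS (SD, n = 15 each; log2 fold change -1.27 ± 0.20, adjusted p = 6.52e-05), and 6.53 ± 1.73 and 13.9 ± 5.47 CPM in cortex (log2 fold change -1.06 ± 0.15, adjusted p = 7.95e-06). Loxl1, the family member tied to elastic fibre renewal, and Loxl2, which acts on collagen IV, were lower in NOX4 outer medulla (-0.52 ± 0.12 and -0.93 ± 0.21) and NOX4 cortex (-0.21 ± 0.07 and -0.52 ± 0.12). Loxl3 was lower in NOX4 outer medulla (-0.48 ± 0.11) and not called in cortex (-0.29 ± 0.14), and Loxl4 was called in neither tissue.

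Pcolce and PCOLCE2, paralogs that speed the removal of the procollagen C-propeptide, had strain effects that differed between the tissues in opposite directions. Pcolce had 57.1, 64.2, 88.3, 58.1 and 68.9 CPM in NOX4 outer medulla at HS21, against 154, 158, 140.1, 168 and 81.3 CPM in SS. Only NOX4 replicate 3 and SS replicate 5 overlapped there, and Pcolce was not called at HS21. Averaged over diets it was lower in NOX4 outer medulla (log2 fold change -0.72 ± 0.19, adjusted p = 0.00526), with 0.01 ± 0.09 in cortex. PCOLCE2 had 4.41, 7.80, 5.74, 5.72 and 4.37 CPM in NOX4 cortex at HS21 and 12.8, 13.9, 17.6, 15.9 and 8.99 CPM in SS, with no overlap, and was lower in NOX4 cortex over the diets (log2 fold change -1.08 ± 0.14, adjusted p = 3.01e-06). In outer medulla PCOLCE2 was not called (0.04 ± 0.17): at LS it had 7.55, 9.12, 8.76, 7.59 and 7.22 CPM in NOX4 and 5.14, 6.08, 2.80, 3.25 and 5.33 CPM in SS, so every NOX4 library stood above every SS library there (not called, adjusted p = 0.0630), while at HS21 the groups overlapped.

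Nidogens link laminin to collagen IV in basement membranes. Nid1 had 195, 200.4, 186, 195 and 212 CPM in NOX4 cortex at HS21, against 351, 396, 320.4, 278 and 239 CPM in SS, with no overlap. Its difference in cortex was called at LS and not at HS21. Averaged over diets, its log2 fold change was -0.82 ± 0.11 in cortex (adjusted p = 4.60e-06) and -0.37 ± 0.11 in outer medulla (adjusted p = 0.0151). Nid2 was lower by smaller amounts (-0.34 ± 0.11 in outer medulla, -0.14 ± 0.04 in cortex; both called). Hspg2, for perlecan, stood in the table under the name AABR07073181.1, which RefSeq lists as a synonym, and is kept out of all counts of calls, whereas its window is among the 24 searched for motifs. It averaged 77.6 ± 2.59 CPM in NOX4 outer medulla at HS21, against 135 ± 36.4 CPM in SS (SD, n = 5 each), and over the diets its log2 fold change was -1.11 ± 0.19 in outer medulla and -0.60 ± 0.11 in cortex (adjusted p = 0.000109 and 8.96e-05). By diet it was called at LS and HS7 in both tissues and not at HS21 (adjusted p = 0.189 in outer medulla and 0.589 in cortex).

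Split by diet, the median strain difference of these genes was widest at HS21. By edgeR, 18 of 35 were lower in NOX4 outer medulla at HS21 and none higher, against 1.33% of all genes called lower, with a median log2 fold change of -0.91. In cortex 12 of 34 were lower and none higher, against 0.665% of all genes, with a median of -0.65. The share of all genes called depended on the method. At HS21 the authors' deposited table called 25.6% of all genes in either direction in outer medulla and 9.38% in cortex. Of the 37 gene rows of the set with an adjusted p there, 27 and 25 were lower. The 9 called in both tissues by edgeR were Bgn, Dcn, Fbln1, Fbn1, Fn1, Lox, Loxl1, Ltbp2 and Tnc. They made up 50% of the outer medulla list and 75% of the cortex list. At HS7, 6 were lower in outer medulla (4.39% of all genes) and 13 in cortex (7.77%), and at LS 9 (6.05%) and 6 (10.3%). Median log2 fold changes were -0.58 and -0.36 at HS7 and -0.48 and -0.19 at LS, in outer medulla and cortex. No gene of the set was called higher at any single diet by edgeR. The authors' deposited table called 1 of the 37 gene rows higher at LS in outer medulla and 1 at HS21 in cortex. It called 17.1% and 9.38% of all genes in either direction in those comparisons.

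The counts at single diets depended on single libraries. In outer medulla at HS21 the count dropped to 6, 6, 3 and 5 without NOX4 replicate 1, 2, 4 or 5 and to 8, 11, 9 and 5 without SS replicate 1, 2, 3 or 4, and 3 genes, Eln, Ltbp2 and Tnc, were called in every such fit. In cortex at HS21 it dropped to 5 without SS replicate 3, and 5 genes (Dcn, Fn1, Loxl1, Ltbp2 and PCOLCE2) were called whichever library was left out. At LS in outer medulla it dropped to 5, 4 and 2 without NOX4 replicate 1, 2 or 4 and to 2 without SS replicate 3, and in cortex to 3 without NOX4 replicate 2 or 4. Without SS replicate 3, the library with the high Slc34a1 value, 21 genes were called in outer medulla at HS7 in place of 6. Without NOX4 replicates 3 and 4, 9 were called in cortex at HS7 in place of 13, and 17 over the averaged diets in place of 20. With the segment 3 score as covariate the HS21 counts were 2 in outer medulla and 4 in cortex.

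The response to salt was asked within each strain. In SS rats at HS21 against LS, edgeR called 9 of 35 genes higher and none lower in outer medulla, against 5.29% of all genes called higher. In SS cortex it called 11 of 34 higher and none lower, against 8.42%. The authors' deposited table called 14 of the 37 gene rows with an adjusted p higher and 2 lower in outer medulla, and 14 higher and 1 lower in cortex. It called 13% and 15.1% of all genes in either direction in those comparisons. Fbln1, Loxl1, Ltbp2, PCOLCE2 and Tnc were called in both tissues by edgeR, 55.6% of the outer medulla list and 45.5% of the cortex list. Of the marker lists, 2 of 11 fibroblast and 3 of 10 smooth muscle markers were higher in SS outer medulla at HS21 against LS, and 0 and 2 in SS cortex, while 4 of 7 tubular injury markers were higher in outer medulla and 5 of 7 in cortex; their part was not tested. The salt and strain comparisons at HS21 use the same SS HS21 libraries and are not independent of each other.

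In SS outer medulla the widest rises were those of Postn (log2 fold change 2.64 ± 0.45, adjusted p = 0.000569), Eln (log2 fold change 2.16 ± 0.32, adjusted p = 0.000189) and Cthrc1 (log2 fold change 2.09 ± 0.53, adjusted p = 0.0131). Eln had 148, 119.7, 165, 292 and 55.5 CPM in SS at HS21, against 33.1, 31.1, 39.1, 35.3 and 32.9 CPM at LS. The lowest HS21 library lay above the highest LS library. In SS cortex Ltbp2 rose most, with 34.9, 43.2, 72.3, 60.9 and 42.0 CPM at HS21, against 15.8, 7.75, 9.71, 10.2 and 15.8 CPM at LS, without overlap (log2 fold change 2.09 ± 0.25, adjusted p = 5.98e-06). Fbln1, Thbs1 and Loxl1 also rose there without overlap (1.25 ± 0.20, 0.76 ± 0.13 and 0.88 ± 0.12). With any 1 library left out, 6 of the 9 stayed called in outer medulla and 8 of the 11 in cortex; Loxl1, Loxl3 and Tnc in outer medulla and Lox, PCOLCE2 and Prelp in cortex were lost without one or another library (adjusted p up to 0.13). Without the low-complexity libraries 10 were called in outer medulla and 7 in cortex.

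At HS7 against LS, Ltbp2 (log2 fold change 1.08 ± 0.25, adjusted p = 0.0224) and Thbs1 (log2 fold change 0.49 ± 0.13, adjusted p = 0.0483) were higher in SS cortex (1.17% of all genes called higher), and PCOLCE2 in SS outer medulla (log2 fold change 1.21 ± 0.30, adjusted p = 0.0299; 1.55%). Ltbp2 had 24.9, 20.3, 21.0, 23.8 and 36.6 CPM in SS cortex at HS7, all above the highest LS library, with replicate 5 inside the range of HS21. No gene was called in either tissue without the low-complexity libraries, and each of the 3 calls was lost in some fits with 1 library left out (adjusted p up to 0.0572, 0.0937 and 0.0942). These were the fits without SS cortex HS7 replicate 1, 3 or 5 or LS replicate 1, 2, 3 or 4, where the cortex count was 0 or 1, and without SS outer medulla HS7 replicate 3 or 4 or LS replicate 3 or 4, where it was 0.

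**Figure D3:**
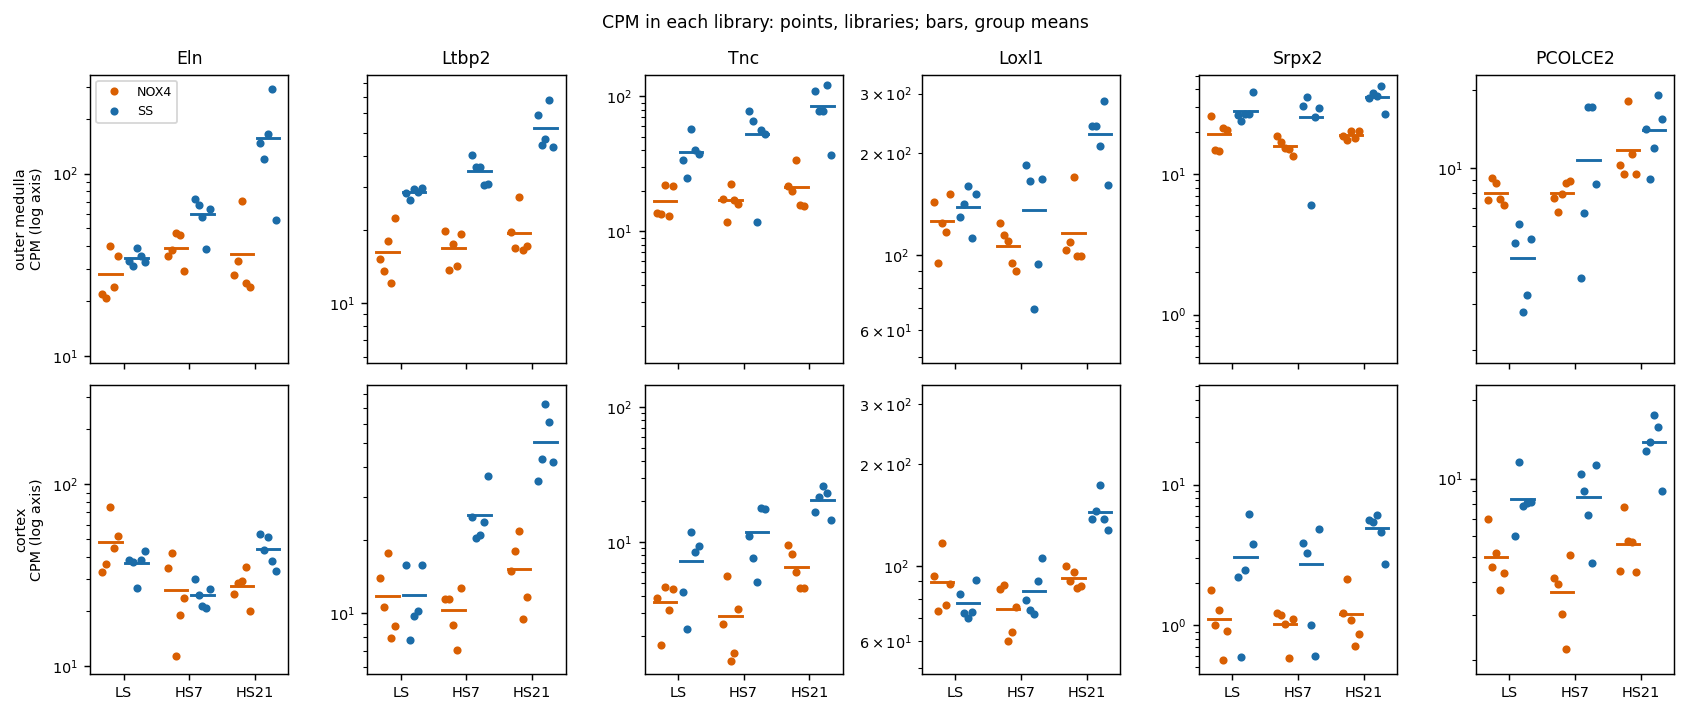
CPM of 6 genes on a log axis in outer medulla (top) and cortex (bottom) at LS, HS7 and HS21; points are libraries, 5 per group, orange NOX4 and blue SS, and bars are group means. In cortex Ltbp2 runs from 9.52 to 21.8 CPM in NOX4 and from 34.9 to 72.3 CPM in SS at HS21, while at LS the 2 strains share their range.

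In NOX4 rats no gene of the set was called for HS7 or HS21 against LS in either tissue by edgeR, where no gene of the whole table was called either (0%). At an unadjusted p under 0.05 there were 5 of 34 in cortex at HS21 (236 of 15179 over all genes) and 6 of 35 in outer medulla (249 of 15799). At HS7 there were 14 of 34 in cortex (782 of 15179 over all genes) and 3 of 35 in outer medulla (2162 of 15799). In cortex at HS7 the log2 fold change lay below 0 for 27 of the 34 and above 0 for 7, with a median of -0.30. The mean of log2(CPM + 1) over the 34 genes tested in both tissues was 3.74 and 3.82 in replicates 3 and 4 of NOX4 cortex at HS7. It was 4.18, 4.22 and 4.05 in replicates 1, 2 and 5, and 4.02 to 4.51 in NOX4 cortex at LS. The library names of replicates 3 and 4 fall outside the number order of the others. Without both, edgeR called 0 at HS7 in cortex. DESeq2 called 1 in cortex at HS7 and none in the other 3 comparisons. The authors' deposited table called 0 at HS7 in both tissues. At HS21 it called 1 higher and 1 lower in cortex and 1 higher in outer medulla. Of all genes it called 0.177% in cortex and 0.205% in outer medulla at HS21, in either direction. Eln had 27.7, 33.1, 70.7, 25.2 and 23.8 CPM in NOX4 outer medulla at HS21, against 21.8, 20.6, 39.9, 23.8 and 35.1 CPM at LS, and Ltbp2 had 15.0, 18.0, 21.8, 9.52 and 11.7 CPM in NOX4 cortex at HS21, against 13.9, 10.6, 17.8, 7.89 and 8.89 CPM at LS. Without NOX4 HS7 cortex replicate 1, 1 gene was called at HS7 in cortex. Both pairs of groups at HS21 overlapped (0.35 ± 0.31 and 0.36 ± 0.25).

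**Figure D4:**
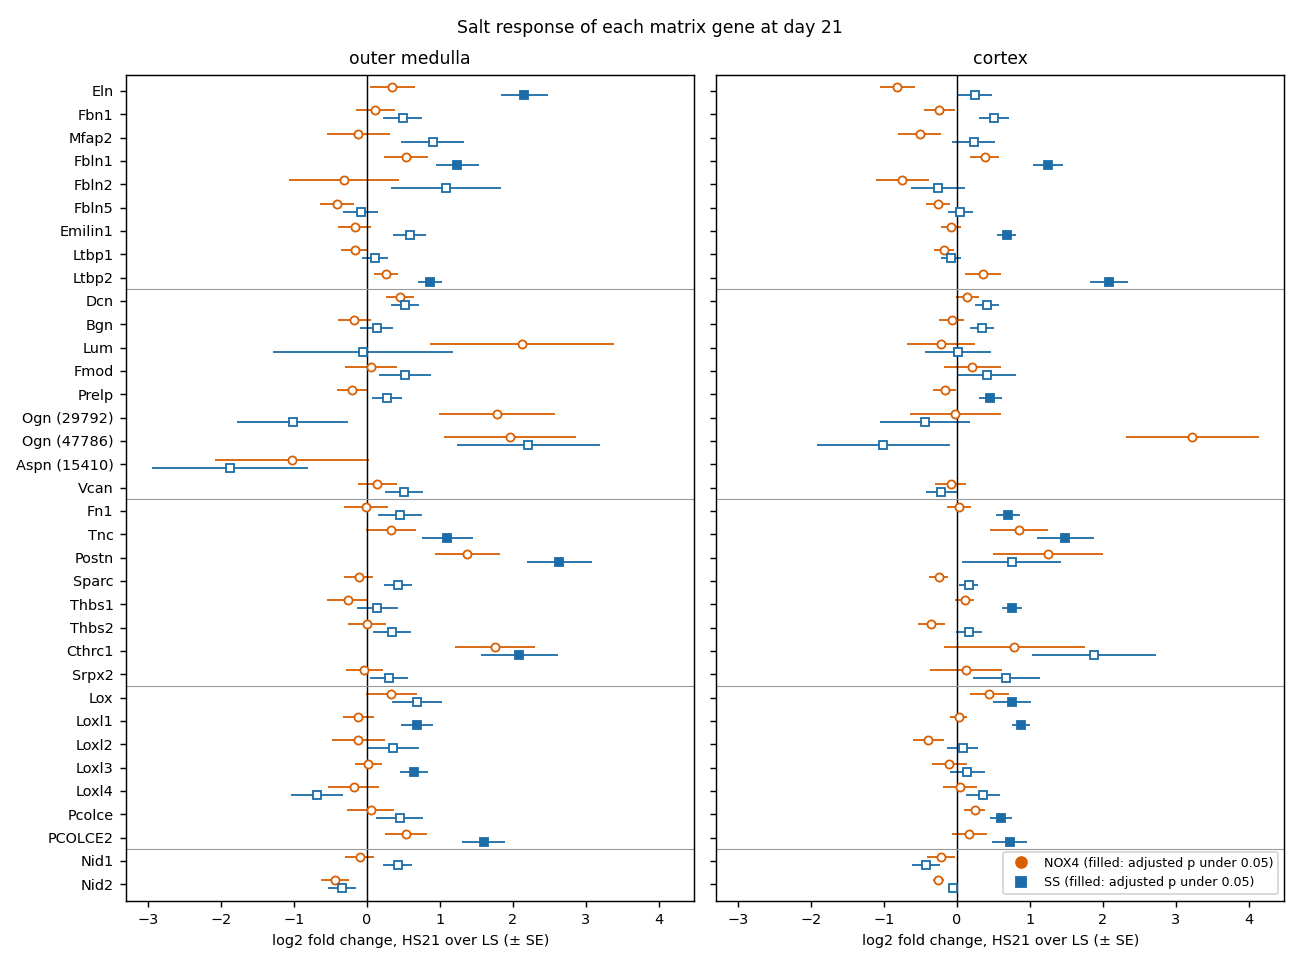
Log2 fold change of HS21 over LS for each gene in outer medulla (left) and cortex (right); circles are NOX4, squares SS, bars 1 standard error from the edgeR fit, and filled symbols passed an adjusted p of 0.05. Filled symbols are all SS and all right of 0, with Ltbp2 in cortex at 2.09, against 0.36 in NOX4.

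Whether the salt response at HS21 differed between the strains was tested as an interaction. In cortex 3 of 34 genes had a lower response in NOX4, against 0.567% of all genes: Ltbp2 (-1.73 ± 0.35, adjusted p = 0.0156), Loxl1 (-0.86 ± 0.17, adjusted p = 0.0114) and Emilin1 (-0.76 ± 0.19, adjusted p = 0.0428). Loxl1 had 99.7, 90.2, 95.9, 86.3 and 87.5 CPM in NOX4 cortex at HS21 and 93.4, 73.3, 117, 76.7 and 88.6 CPM at LS, while SS cortex had 137, 145, 173, 138 and 128 CPM at HS21 and 82.5, 72.5, 70.3, 73.1 and 91.1 CPM at LS. The NOX4 groups overlapped and the SS groups did not. Emilin1 had 89.3, 85.0, 89.5, 84.0 and 82.9 CPM in NOX4 cortex at HS21 and 87.8, 73.1, 121, 78.4 and 91.9 CPM at LS, while SS cortex had 107, 129, 134, 119 and 107 CPM at HS21 and 75.3, 104, 53.5, 64.5 and 71.6 CPM at LS. Again the NOX4 groups overlapped and the SS groups did not. Emilin1 stayed called in 4 of 20 fits with 1 library left out (adjusted p up to 0.0927), Ltbp2 and Loxl1 in all 20, and none of the 3 was called without the low-complexity libraries (-1.32, -0.71 and -0.78 for Ltbp2, Loxl1 and Emilin1).

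In outer medulla no interaction was called by edgeR among 35 genes, where 0.0253% of all genes were. At an unadjusted p under 0.05 there were 7 of 35, against 1466 of 15799 over all genes, and DESeq2 called 1. The median log2 interaction was -0.40 in outer medulla and -0.44 in cortex, against -0.03 and -0.02 over all genes. For Eln in outer medulla it was -1.81 ± 0.44 (adjusted p = 0.116). Leaving out NOX4 HS21 replicate 3 gave 1 call, whereas each other library left out gave 0.

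Most of the set was more abundant in outer medulla than in cortex. In NOX4 rats 29 of 36 genes were higher in outer medulla and 4 lower (32.3% of all genes higher, 28.4% lower), with a median log2 fold change of 0.96, and in SS rats 29 were higher and 4 lower (32.9% and 31.9%), with a median of 1.12. The widest gaps were those of Srpx2 (18.0 ± 3.27 CPM in outer medulla and 1.11 ± 0.414 CPM in cortex of NOX4, n = 15 each; 4.00 ± 0.23) and Cthrc1 (3.69 ± 0.44 in NOX4, 3.58 ± 0.40 in SS). Fmod, Lum, Fbln2 and Mfap5 were lower in outer medulla in both strains, Fmod at 2.97 ± 0.905 CPM in outer medulla and 8.80 ± 2.62 CPM in cortex of NOX4. Every one of these calls held with any 1 library left out. Of the 11 fibroblast markers, 8 were higher and 1 lower in NOX4 outer medulla, and 9 and 1 in SS. Of 10 smooth muscle and pericyte markers, 3 were higher and 4 lower in NOX4, and 5 and 2 in SS. Of 9 endothelium markers, 5 were higher and 2 lower in NOX4, and 6 and 2 in SS. All 8 macrophage markers tested were higher in outer medulla in both strains. The part of these cells was not tested.

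The averaged strain effect itself differed between outer medulla and cortex for 7 of 36 genes, 4 of them lower (3.48% of all genes) and 3 higher (7.52%). Eln (-0.94 ± 0.23, adjusted p = 0.00433), Pcolce (-0.70 ± 0.21, 0.0203), Sparc (-0.51 ± 0.14, 0.00850) and Ltbp1 (-0.42 ± 0.13, 0.0291) had a lower NOX4-to-SS ratio in outer medulla than in cortex. PCOLCE2 (1.14 ± 0.22, 0.000360), Srpx2 (0.91 ± 0.30, 0.0400) and Nid1 (0.47 ± 0.16, 0.0476) had a lower ratio in cortex. Eln, Pcolce, Sparc and PCOLCE2 were called in all 60 fits with 1 library left out, Ltbp1 in 57, Srpx2 in 44 and Nid1 in 25 (adjusted p up to 0.0533, 0.0823 and 0.0855). Without SS HS7 outer medulla replicate 3 the count was 11. For Ltbp1 the 3 libraries were NOX4 LS cortex replicate 3 and SS HS7 outer medulla replicates 1 and 2.

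A further list of matrix, basement membrane and collagen-modifying genes was set beside these. Of 62 tested in outer medulla, 27 were lower and 2 higher in NOX4 averaged over diets, with a median log2 fold change of -0.32. Over all genes there, 15.1% were called lower and 15.4% higher. Of 60 tested in cortex, 17 were lower and 9 higher, with a median of -0.12. Over all genes in cortex, 15.0% were called lower and 2540 of 15179 higher. Adamts2, a procollagen N-propeptidase, was lower in outer medulla (-1.30 ± 0.20, adjusted p = 4.56e-05) and in cortex (-0.87 ± 0.16, adjusted p = 0.000176), and Smoc2, a relative of Sparc, was lower too (-0.88 ± 0.18 and -2.09 ± 0.29, adjusted p = 0.000591 and 6.6e-06). In SS rats on salt for 21 days, 7 of this list were higher and 1 lower in outer medulla, and 13 and 4 in cortex. Over all genes, 5.29% were called higher in outer medulla and 8.42% in cortex, and 721 of 15799 and 1221 of 15179 lower. In NOX4 rats edgeR called none in either tissue.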

How the data were processed

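RNA-seq counts per gene, FPKM values, log2 fold changes and p-values stand in 1 table deposited by the authors for all 60 libraries. HISAT2 2.0.5, StringTie 1.3.3b and featureCounts 1.5.0-p3 are named in the submitters' processing notes; genome build, annotation and strandedness are not given in the sources used here. The deposited counts are whole numbers, not normalized, of reads without molecular identifiers. The authors' FPKM values were not used, and the authors' deposited log2 fold changes and p-values served only for counts of calls. Totals ran from 11.5 to 29.6 M counts per library, and genes of few counts are known least precisely.

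Counts were analysed with edgeR 4.0.16 (limma 3.58.1, R 4.3.3): TMM scaling, filterByExpr by group, 1 coefficient per group and the quasi-likelihood test over the 30 libraries of a tissue (all 60 for comparisons of tissues). The Benjamini-Hochberg adjustment ran over every gene tested, with calls made below 0.05. Standard errors were taken as the size of the log2 fold change over the root of its F statistic. Levels are CPM on 1 TMM scale over the 60 libraries, given as mean ± SD over libraries. The steps were tested on simulated data.

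The genes were taken by name from a list of 37, and members and marker lists were chosen with earlier results of these data known. Values per library are printed for the 5 called genes with the widest averaged strain difference in each tissue, for genes called for an interaction and for those against the direction of most. Marker and other matrix genes are named only where called, at most 6 per list and comparison. Alternatives were DESeq2 1.42.0, its size factors, no filter on low counts, each library left out, a replicate block, the compared groups alone, the proximal tubule segment 3 score as covariate, and fits without low-complexity libraries or without NOX4 HS7 cortex replicates 3 and 4. Whether libraries with the same replicate number are paired is not known. No block is used in the main fits, which treat the libraries as independent.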

Additional observations from a re-analysis of the deposited data

Results flagged for a closer look

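Of 180 groups of 5 libraries examined for the 15 genes with printed values, 15 held a library whose gap to its nearest neighbour was over Dixon's 95% critical value for 5 samples; chance flags about 1 in 20 groups. Of these values, 6 came from replicate 3 of NOX4 outer medulla at HS21. That library stood above the other 4 of its group for Cthrc1 (6.27 CPM, others 1.38 to 2.49), Eln (70.7 CPM, others 23.8 to 33.1), Emilin1 (146 CPM, others 91 to 106), Loxl1 (170 CPM, others 99.4 to 109), PCOLCE2 (18.0 CPM, others 9.45 to 11.4) and Postn (4.12 CPM, others 1.07 to 1.82).

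Emilin1 also had a library that stood apart in NOX4 outer medulla at HS7 (replicate 1, 138 CPM, others 94.9 to 105), in SS outer medulla at HS21 (replicate 5, 136 CPM, others 197 to 218) and in SS outer medulla at LS (replicate 3, 173 CPM, others 107 to 125). Srpx2 was high in replicate 5 of SS outer medulla at LS (38.1 CPM, others 23.8 to 26.6). Ltbp2 was high in replicate 5 of SS cortex at HS7 (36.6 CPM, others 20.3 to 24.9), and Postn in replicate 2 of NOX4 cortex at LS (0.502 CPM, others 0.205 to 0.276). The Ogn row ENSRNOG00000029792 was high in replicate 2 of NOX4 outer medulla at HS7 (13.5 CPM, others 2.24 to 5.04). The row ENSRNOG00000047786 was high in replicate 5 of NOX4 outer medulla at LS (3.51 CPM, others 0.0592 to 0.616) and in replicate 4 of SS cortex at HS7 (2.33 CPM, others 0 to 0.32).

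The averaged strain effect differed between outer medulla and cortex by a test of the difference itself for 7 genes. The log2 difference, outer medulla minus cortex, was 1.14 for PCOLCE2, 0.907 for Srpx2 and 0.472 for Nid1, and -0.944 for Eln, -0.702 for Pcolce, -0.513 for Sparc and -0.423 for Ltbp1. The salt response at HS21 in cortex differed between NOX4 and SS by the same kind of test for Ltbp2 (-1.73), Loxl1 (-0.858) and Emilin1 (-0.76).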

How the results depend on the processing

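No value of a called gene reversed its direction under any alternative. Over the fits with 1 library left out, 4409 of 4740 gene values stayed called and 331 did not; with the segment 3 covariate 42 of 111 stayed called. Averaged strain calls, outer medulla against cortex and SS at HS21 against LS stayed within 1.5 times their counts except as given next. With the segment 3 covariate, outer medulla counts for NOX4 against SS were 10 averaged, 1 at LS and 2 at HS21, and cortex counts 8, 0 and 4. Fitting the compared groups alone gave 16 at LS and 0 at HS7 in outer medulla, and 4 at HS7 and 23 at HS21 in cortex. DESeq2 gave 11 for NOX4 against SS at HS7 in outer medulla, 3 for SS at HS7 against LS in outer medulla, 1 for NOX4 at HS7 against LS in cortex, and 1 and 5 for the interaction in outer medulla and cortex. Without low-complexity libraries the counts were 19 for NOX4 against SS at HS7 in outer medulla, 0 in both tissues for SS at HS7 against LS, 7 for SS at HS21 against LS in cortex and 0 for the cortex interaction. Without a filter on low counts, SS at HS7 against LS gave 1 in cortex. The causes were not tested.

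With 1 library left out, NOX4 against SS ranged in outer medulla from 2 to 10 at LS, 4 to 21 at HS7 and 3 to 23 at HS21, and in cortex from 3 to 8 at LS and 5 to 13 at HS21. SS at HS7 against LS ranged from 0 to 1 in outer medulla and 0 to 2 in cortex, NOX4 at HS7 against LS in cortex from 0 to 1, the outer medulla interaction from 0 to 1, and the difference between tissues from 5 to 11.

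Within a tissue the replicate block was the replicate number, shared across strains and diets. For comparisons of tissues it was strain, diet and number together, as if both pieces came from the same animal. The block gave 0 calls in outer medulla and 1 in cortex for SS at HS7 against LS. For NOX4 against SS at HS21 it gave 14 in outer medulla and 11 in cortex. Apart from SS at HS7 against LS, it moved no count by over 1.5 times. Over 30 pairs of outer medulla and cortex with the same strain, diet and number, deviations from group means correlated from -0.152 to 0.177 (median 0.0221), 4 of them over 0.1. Low correlations cannot exclude that pieces with the same number came from 1 animal, so whether the libraries are paired is not known.

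Genes near 1 CPM, such as Postn and Cthrc1 in cortex, rest on few counts, and 5 libraries a group limit what single diets can show.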
